A study of Mus musculus with 8 samples.

Results

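The genes described here encode the constitutive proteasome, the protein-degrading machine that every mouse cell makes, in macrophages sorted from breast tumours. They were chosen as all genes on the array whose current symbol begins with Psma, Psmb, Psmc, Psmd or Psme, leaving out the interferon-inducible catalytic subunits Psmb8, Psmb9 and Psmb10. The rule used no measured difference between the genotypes. It gave 41 genes, read by 58 probes, out of 32665 genes and unnamed accessions read by 41174 probes. Where a gene had several probes, the brightest over the 8 arrays stood for it. The symbols Psma8, a testis form of an alpha subunit, and Psme2b had no probe matched here.

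The samples fall into a group labelled KO TAM and a group labelled WT TAM, with 4 samples each. All hosts were C57BL/6 mice. KO hosts lacked the stress-induced transcription factor ATF3 and WT hosts were wild type. Both kinds of host received PyMT breast cancer cells, tumour cells that express the polyoma middle T oncogene, in the breast, and tumours were taken about 21 days later. RNA came from cells sorted for F4/80, which Adgre1 encodes and macrophages carry, together with CD45, which Ptprc encodes and leukocytes carry. The labels place the knockout in the whole host, not in macrophages alone, and state no genotype for the implanted cells. Nothing in them says that each sample came from its own mouse, so a p-value here measures only the spread between these samples. KO and WT below follow these labels.

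The proteasome degrades proteins tagged with ubiquitin. Its 20S core is a barrel of alpha and beta rings, with the cutting sites inside on the beta subunits PSMB5, PSMB6 and PSMB7. A 19S cap recognises, unfolds and feeds in tagged proteins, and other activators can open the barrel in its place. In macrophages the peptides it cuts also supply antigen presentation, and interferon makes cells exchange the 3 constitutive cutting subunits for PSMB8, PSMB9 and PSMB10. When the proteasome is inhibited, the transcription factor NRF1, encoded by Nfe2l1, raises most subunit genes together through antioxidant response elements in their promoters.

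Because of that known shared control, the promoters of these genes were read for 3 short motifs, using RefSeq promoters of build GRCm38.p6 that run from before each gene's start to just after it. A promoter was found for 35 of the 41 genes, and each motif was searched on both strands. The antioxidant response element, searched as TGACNNNGC, stood in the promoters of 6 of the 35 genes (17.1%), against 14.0% of all genes with a promoter. The cAMP response element TGACGTCA, a site that ATF3 can bind, stood in 0 of 35, against 2.03% of all genes. CCAAT stood in 15 of 35 (42.9%), against 41.1%. Occurrences of different motifs were counted separately, and a match to letters is not a measured binding site. The 6 genes with TGACNNNGC were Psmb5, Psmb6, Psmc6, Psmd9, Psmd12 and Psme4. The stretches around this motif in Psmb5, which encodes a cutting subunit, and Psmd9, which encodes an assembly chaperone, are shown as 2 examples, 5′ to 3′ on the gene's strand, with the motif in capitals. The Psmb5 stretch is chr14:54618008-54618067 on the minus strand, with its motif 47 bases before the start. The Psmd9 stretch is chr5:123228130-123228189 on the plus strand, with its motif 31 bases before the start.
Psmb5: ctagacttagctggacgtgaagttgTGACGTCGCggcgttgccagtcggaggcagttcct
Psmd9: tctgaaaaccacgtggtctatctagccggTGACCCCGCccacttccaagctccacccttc
Over the 6 genes with TGACNNNGC the median KO minus WT difference was 0.024 on the log2 scale, and 3 of them were higher in KO. Over the 28 tested genes with a promoter lacking it the median was 0.065, and 23 were higher.

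Every sample had a 1-colour array of its own. Slide 1 held the samples numbered 1 and 2 of both genotypes, and slide 2 held numbers 3 and 4. Between 63.7% and 68.0% of the spots were well above background and 0 were saturated. Levels below are log2 of the processed signal minus the array's 75th percentile, so a level of 0 is as bright as that percentile, and a difference is KO minus WT on this scale. The number of arrays limits the precision. Atf3 measured 5.51, 4.86, 4.96 and 4.88 in KO samples 1 to 4, against 4.92, 4.99, 4.79 and 4.51 in WT samples 1 to 4 (difference 0.25, limma adjusted p = 0.9999). The probe's position relative to the deletion is not known here, so this signal checks no label. The sort marker Adgre1 averaged 4.07 ± 0.54 in KO and 4.14 ± 0.60 in WT (SD, n = 4 each). Ptprc averaged 4.42 ± 0.55 in KO and 4.52 ± 0.54 in WT (SD, n = 4 each).

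The signal of nearly all proteasome genes was clear in every sample. Of the 41, 40 were well above background on all 8 arrays and entered the test of 20870 genes. The exception was Psmb11, which encodes the beta subunit of the thymus proteasome: 0 of 8 arrays read its probe well above background, with processed signals between 5.83 and 12.7 intensity units. Of the 40, 38 (95%) lay above the array's 75th percentile on all 8 arrays, against 33.1% of all genes tested. This compares probes with the array and not the abundance of genes, since probes differ in brightness. The other 2 were Psmd9 and Psmc3ip. Psmc3ip is named after an ATPase subunit that its protein binds and is known for its work in meiotic recombination, not as a subunit.

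No proteasome gene was called between the genotypes. Of the 40 tested, 0 had an adjusted p under 0.05 in limma, against 0% of all 20870 genes. The adjusted p was 0.9999 for each of the 40, and the smallest over all genes was 0.415. With the unadjusted threshold of 0.05, 0 of the 40 passed as higher and 0 as lower, against 1.12% and 2.22% of all genes. The genotypes overlapped in every one of the 40 genes. KO lay wholly above WT in 0.757% and wholly below in 1.36% of all genes tested. With shares this low, 0 of 40 does not set the proteasome genes apart from the other genes.

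With all samples and the processed signal, the differences were small as well as uncalled. Their median over the 40 genes was 0.067, against -0.0086 over all genes tested, with a range from -0.087 in Psmc1 to 0.31 in Psme3. A difference under 0.1 in size was found in 34 of the 40 (85.0%), against 31.4% of all genes. The 95% interval lay within a 2-fold change either way in 39 of 40 (97.5%), against 51.3% of all genes, and Psmc3ip was the exception with an interval from -1.03 to 1.18. Over the 38 genes that encode subunits, activators or assembly chaperones, the lowest lower bound was 0.707-fold, in Psmd1, and the highest upper bound was 1.69-fold, in Psme3. The spread between samples of 1 genotype was also narrow: the median SD was 0.19 over the 40 genes, against 0.47 over all genes. Only 11.1% of all genes tested had an SD below that 0.19. The proteasome genes were also brighter, with a median level of 3.24 against -0.97 over all genes tested. These sizes, intervals and SDs were not compared with genes of like brightness, so the part of brightness in them was not tested. They also hold for the processed signal alone. With normexp background correction the median difference over the 40 genes was 0.19, against -0.13 over all genes, and sizes under 0.1 were not counted.

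**Figure D1:**
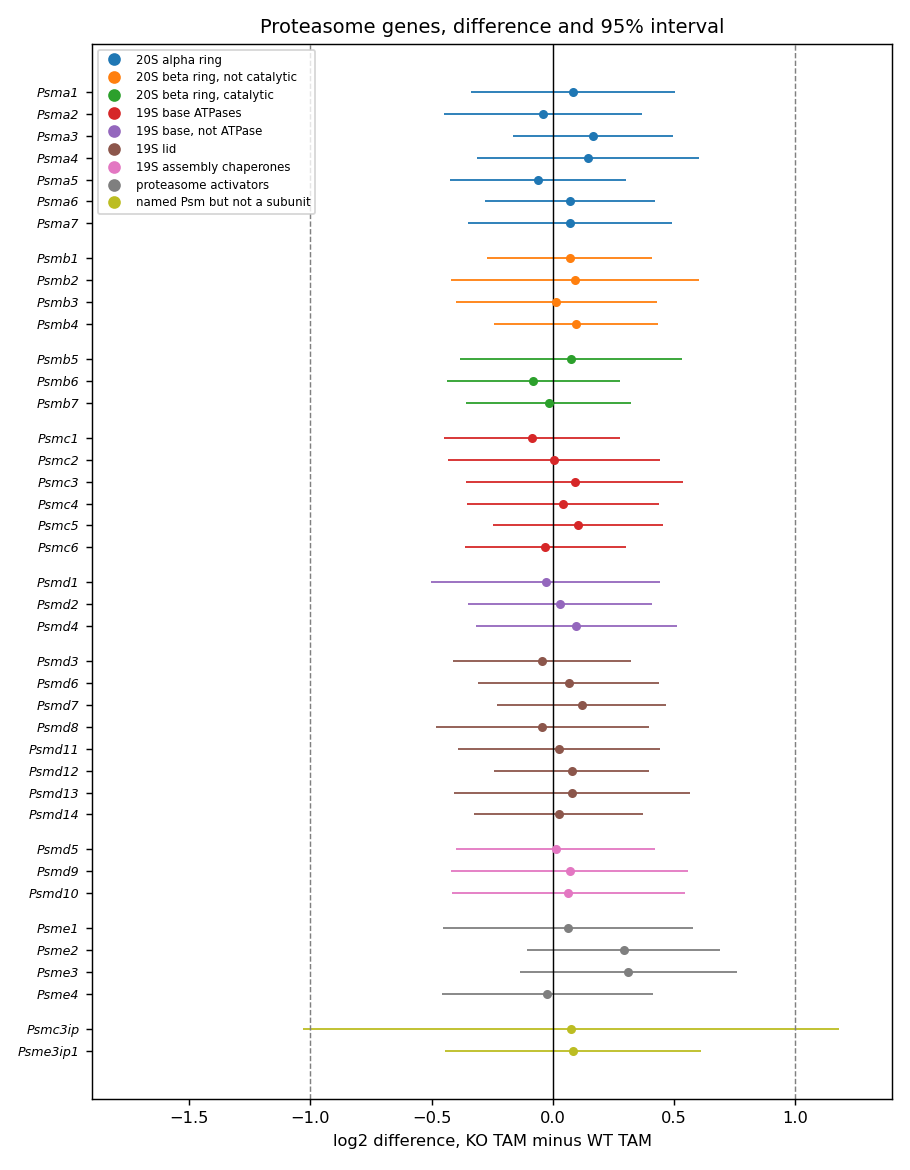
Log2 difference, KO TAM minus WT TAM, for each of the 40 tested proteasome genes (points, coloured by role). Bars are 95% intervals from limma without the replicate block, and dashed lines mark a 2-fold change. Points run from -0.087 to 0.31, every interval crosses 0, and Psmc3ip alone has an interval that passes the dashed lines.

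A positive difference was found in 30 of the 40 genes and a negative one in 10, against 48.6% positive among all genes tested. This majority was not seen on both slides. On slide 1, 19 of 40 were higher in KO with a median of -0.028, and on slide 2, 35 of 40 with a median of 0.096. It also rested on single samples. Without WT sample 4, 15 of 40 were higher and the median was -0.028, the same as the median of all genes in that fit. Without KO sample 3, 19 were higher and the median was -0.0053. Without both samples numbered 4, 21 were higher and the median was 0.0081, and without both samples of any other number 30 to 32 were higher with medians from 0.057 to 0.068. Leaving out any of the other 6 samples gave 28 to 32 of 40 and medians from 0.048 to 0.094. With normexp background correction 39 of 40 were higher with a median of 0.19, while the median of all genes was -0.13 and 39.2% of them were higher. With the authors' deposited table of processed values 25 of 40 were higher.

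**Figure D2:**
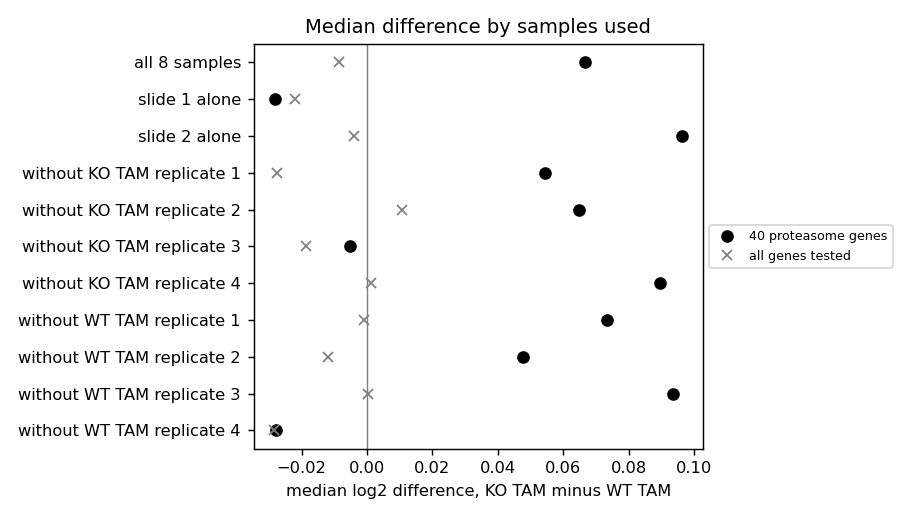
Median log2 difference, KO TAM minus WT TAM, of the 40 proteasome genes (black points) and of all genes tested (grey crosses), with all 8 samples and with each sample left out in turn or each slide alone. The proteasome median is 0.067 with all samples and drops to -0.028 without WT sample 4, where it meets the median of all genes.

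WT sample 4 was the sample in which proteasome genes were dimmest. Set against its own mean over the 8 samples, 39 of the 40 genes lay below that mean in WT sample 4, with a median deviation of -0.21, or 0.863-fold. Below their means there were also 52.3% of all genes tested, with a median of -0.029, and 68.1% of the 6915 genes above the 75th percentile on all arrays, with a median of -0.14. Of the 1952 genes with a mean level between the quartiles of the proteasome genes, 70.0% lay below, with a median of -0.14. The exception was Psmc3ip, at 0.57 above its mean, so all 38 subunit, activator and chaperone genes lay below. WT sample 4 was the lowest of the 8 samples for 23 of the 40 genes (57.5%). The same was true of 21.0% of all genes tested and of 31.0% of those 6915 genes.

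KO sample 3 and WT sample 3 stood at the other end. Their median deviations were 0.13 and 0.11, close to the 0.11 and 0.086 of all genes above the 75th percentile, and KO sample 3 was the highest of the 8 for 14 of the 40 genes. The medians of KO samples 1, 2 and 4 were 0.026, 0.00076 and -0.030, and those of WT samples 1 and 2 were 0.064 and -0.0027. The deviation of WT sample 4 was negative in each role group of subunits, activators and chaperones but varied in size. Its median was -0.40 over the 3 base subunits that are not ATPases, -0.30 over the 7 alpha subunits, -0.25 over the 4 activators, -0.24 over the 6 ATPases, -0.17 over the 8 lid subunits and -0.046 over the 3 assembly chaperones.

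**Figure D3:**
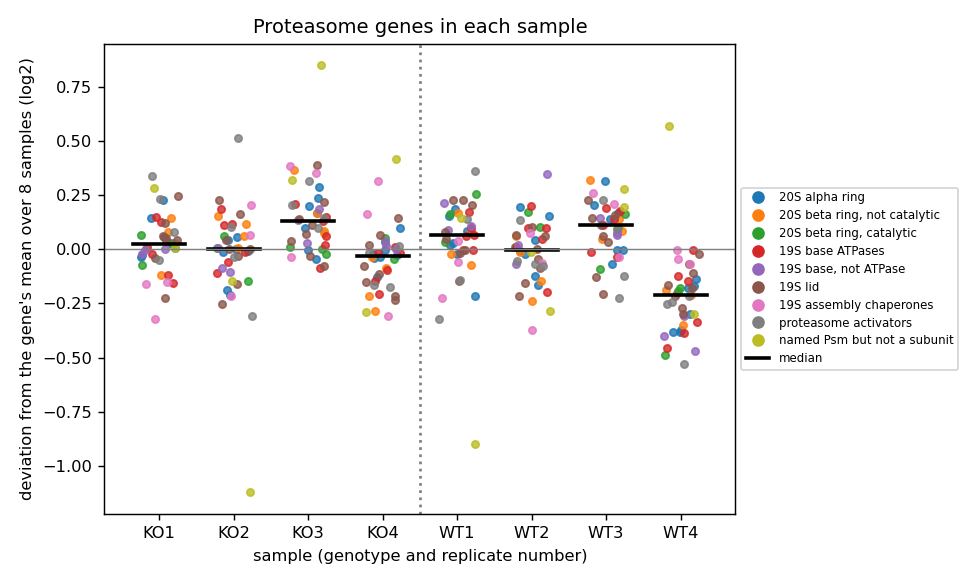
Deviation of each of the 40 proteasome genes from its own mean over the 8 samples, in log2 units, by sample; points are genes coloured by role and the black bar is the median of the sample. In WT sample 4 only Psmc3ip lies above 0 and the median is -0.21, and the median is highest in KO sample 3, at 0.13.

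Between samples of the same number, the proteasome genes differed most in the pair numbered 4. In pair 1, 15 of the 40 genes were higher in KO than in WT, with a median difference of -0.049. In pair 2 there were 22, with a median of 0.023, and in pair 3 there were 26, with a median of 0.028. Pair 4, which holds WT sample 4, had 33 and a median of 0.18. Among all genes the share higher in KO was 52.0%, 44.5%, 47.8% and 49.8% in pairs 1 to 4. Psma1, Psmb4, Psme2, Psme3 and Psme3ip1 were higher in KO in all 4 pairs, and Psmc1 was higher in none. Replicate number held 68.0% of the sum of squares over the 40 genes and genotype 6.11%, against 64.1% and 10.2% over all genes tested. The degrees of freedom alone give 42.9% and 14.3%. The part of replicate number includes that of slide, which held 26.8% over the 40 genes. Over all genes tested slide held 14.7%, and its degrees of freedom alone give 14.3%. These sums are pooled, so genes of wide spread weigh most. Psmc3ip, which is not a subunit, had an SD of 0.74, against a median of 0.19 over the 40 genes. On slide 1 it deviated by 0.0068 and -1.12 in KO and -0.90 and -0.015 in WT. On slide 2 it deviated by 0.85 and 0.42 in KO and 0.19 and 0.57 in WT. Shares without Psmc3ip were not computed.

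Markers of macrophages and of tumour cells also differed between these samples. The 13 tested macrophage markers had a median deviation of -0.63 in KO sample 4 and -0.69 in WT sample 4, with all 13 below their means in WT sample 4. The 8 tested markers of tumour epithelium had a median deviation of 1.44 in KO sample 4 and 1.30 in WT sample 4, and of -1.75 in KO sample 3 and -1.84 in WT sample 3. Some other lists differed between the 2 samples numbered 4, as the proteasome genes did with medians of -0.030 in KO sample 4 and -0.21 in WT sample 4. Genes above the 75th percentile on all arrays had medians of -0.11 in KO sample 4 and -0.14 in WT sample 4. The median was 0.58 in KO sample 4 and 1.52 in WT sample 4 for 7 endothelial markers, and 0.14 in KO sample 4 and -0.56 in WT sample 4 for 9 T cell markers. It was 0.31 in KO sample 4 and -0.70 in WT sample 4 for 4 B cell markers, and -0.020 in KO sample 4 and -0.52 in WT sample 4 for 8 NK cell markers. In the same order it was -0.22 and -0.84 for 3 dendritic cell markers and 1.41 and 0.92 for 6 fibroblast markers. Smaller differences were seen for 4 neutrophil markers (-0.51 and -0.41) and 8 cell cycle genes (0.081 and -0.050). Between genotypes, 4 of 13 macrophage markers (median difference -0.031) and 5 of 8 epithelial markers (0.091) were higher in KO. So were 8 of 8 NK cell (0.59), 8 of 9 T cell (0.51) and 4 of 4 B cell markers (0.49), and 0 of 7 endothelial markers (-0.63). Among the remaining lists, 5 of 6 fibroblast (0.17), 3 of 8 cell cycle (-0.063), 1 of 3 dendritic cell (-0.20) and 0 of 4 neutrophil markers (-0.21) were higher. None of these markers was called, and 1, the endothelial gene Vwf (named after its value was seen), had an unadjusted limma p under 0.05. Summed over the macrophage list, signals relative to the 75th percentile ranged from 283 to 541 in KO and from 271 to 539 in WT. Over the epithelial list they ranged from 13.2 to 111 in KO and from 12.6 to 106 in WT, and 7 of its 8 tested genes were well above background on all arrays. The part of these cells in the proteasome values was not tested. In such sorted bulk samples fewer cells of a type and less RNA per cell cannot be told apart.

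**Figure D4:**
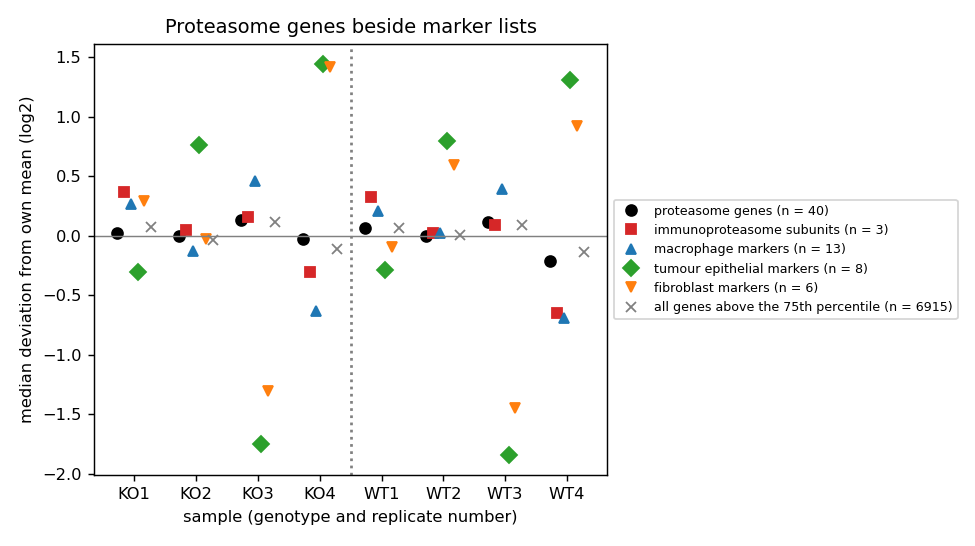
Median deviation from each gene's own mean over the 8 samples, in log2 units, for the proteasome genes and for marker and comparison lists, by sample, with the number of genes in the legend. Macrophage markers are low in both samples numbered 4 (-0.63 in KO and -0.69 in WT), and the proteasome median is low in WT sample 4 alone (-0.21, against -0.030 in KO sample 4).

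The alpha ring, which forms the gate of the barrel, had 7 genes tested, of which 5 were higher and 2 lower in KO with none called and a median difference of 0.072. Psma3 had the smallest p of the ring. It measured 2.24, 2.33, 2.46 and 2.37 in KO samples 1 to 4, against 2.24, 2.10, 2.26 and 2.13 in WT samples 1 to 4. The groups overlapped through KO sample 1, and the difference was 0.17 (SE 0.14, limma adjusted p = 0.9999). Psma4 measured 2.85, 2.92, 3.17 and 2.88 in KO, against 2.67, 2.87, 3.20 and 2.50 in WT. Both its highest and its lowest values were WT samples, numbers 3 and 4, and its difference of 0.14 became 0.040 without WT sample 4. A dimmer second probe of Psma4 gave 0.15. Psma6 averaged 4.28 ± 0.09 in KO and 4.21 ± 0.14 in WT (SD, n = 4 each). Over the other 4 alpha genes the differences ran from -0.062 in Psma5 to 0.084 in Psma1, with Psma2 at -0.041 and Psma7 at 0.072.

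The 4 beta subunits without a cutting site in this set, Psmb1, Psmb2, Psmb3 and Psmb4, were all higher in KO with none called, and their median difference was 0.080. Psmb3 was lower in KO with the deposited table, on slide 2 and without KO sample 2, KO sample 3, WT sample 2 or WT sample 4, and Psmb2 without KO sample 3 or WT sample 4. They complete the beta rings around the cutting subunits. Psmb4 measured 4.31, 4.23, 4.24 and 4.08 in KO samples 1 to 4, against 4.14, 4.15, 4.21 and 3.97 in WT samples 1 to 4. Each KO sample exceeded the WT sample of its number, but KO sample 4 lay below 3 of the WT samples. Its difference was 0.095 (SE 0.15), with an interval of 0.844-fold to 1.35-fold. Psmb1 differed by 0.068, Psmb2 by 0.091 and Psmb3 by 0.014, and the 2 probes of Psmb3 gave 0.014 and -0.0012.

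The 3 cutting subunits had differences on both sides of 0, with a median of -0.018, while with normexp correction Psmb6 and Psmb7 were each higher in KO by 0.11. Psmb5, which carries the chymotrypsin-like site that proteasome inhibitor drugs bind, measured 5.38, 5.38, 5.30 and 5.37 in KO samples 1 to 4, against 5.58, 5.49, 5.23 and 4.84 in WT samples 1 to 4. All 4 KO samples lay inside the WT range, and the SD was 0.041 in KO and 0.33 in WT. The difference of 0.075 turned to -0.074 without WT sample 4, and it was -0.15 on slide 1 and 0.30 on slide 2. Psmb6, which carries the caspase-like site, measured 4.64, 4.47, 4.63 and 4.57 in KO, against 4.78, 4.63, 4.78 and 4.44 in WT. KO lay below WT in pairs 1 to 3 and above it in pair 4, and the difference was -0.081 (SE 0.15). Psmb7, which carries the trypsin-like site, averaged 5.63 ± 0.04 in KO and 5.65 ± 0.14 in WT (SD, n = 4 each), a difference of -0.018. Its interval ran from 0.781-fold to 1.25-fold.

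Each cutting subunit has an interferon-inducible partner that takes its place when new barrels are built, so the partner was set against it within each array. None of the 3 exchanges passed the test between genotypes, and with pairing by replicate number the test could not pass 0.05. Psmb8 minus Psmb5 was -0.19, -0.52, -0.33 and -0.87 in KO samples 1 to 4, against -0.45, -0.66, -0.48 and -0.60 in WT samples 1 to 4. The KO values spanned the WT values on both sides, and the means differed by 0.070 (two-sided exact permutation p = 0.686, adjusted over the 3 exchanges 0.686). Psmb9 minus Psmb6 averaged -0.40 ± 0.19 in KO and -0.57 ± 0.28 in WT (SD, n = 4 each), a difference of 0.18 (exact permutation p = 0.371, adjusted 0.686). Psmb10 minus Psmb7 averaged -1.32 ± 0.33 in KO and -1.50 ± 0.35 in WT (SD, n = 4 each), a difference of 0.18 (exact permutation p = 0.514, adjusted 0.686). The smallest p that 4 against 4 samples can give is 0.0286. Within pairs 1 to 4, Psmb10 minus Psmb7 was higher in KO each time, by 0.16, 0.10, 0.23 and 0.23. Exact sign flips over the 4 pairs, added after the data were seen, gave it p = 0.125, the smallest that 4 pairs can give, and 0.375 adjusted over the 3. Psmb9 minus Psmb6 differed by -0.00050, 0.21, 0.22 and 0.27 in pairs 1 to 4 (exact sign flips p = 0.25, adjusted 0.375). Psmb8 minus Psmb5 differed by 0.26, 0.14, 0.16 and -0.27 (exact sign flips p = 0.625, adjusted 0.625). Without WT sample 4 alone the differences of Psmb9 minus Psmb6 and Psmb10 minus Psmb7 were 0.049 and 0.020, and without both samples numbered 4 they were 0.14 and 0.17. These are differences between probes within an array, so only their change between samples is read, not which gene is more abundant.

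**Figure D5:**
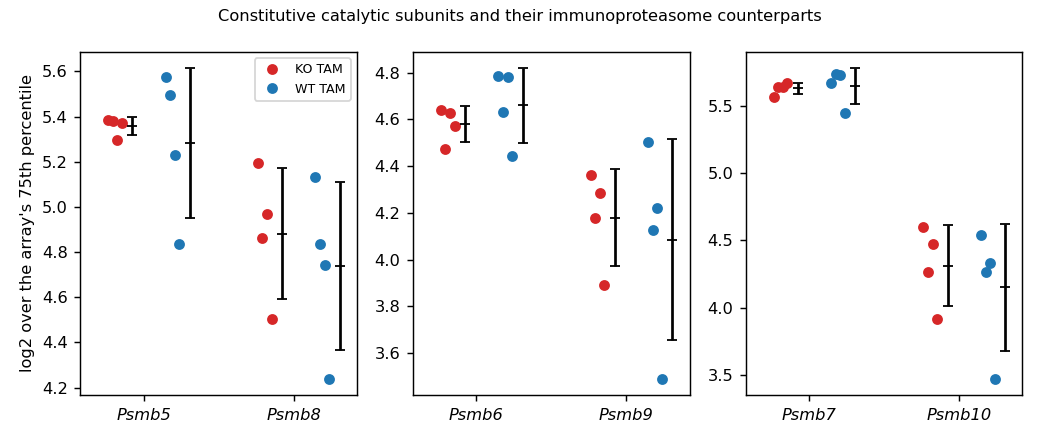
Levels of Psmb5 with Psmb8, Psmb6 with Psmb9 and Psmb7 with Psmb10 in the 4 KO TAM and 4 WT TAM samples, as log2 over the array's 75th percentile; points are samples and the bar beside each group is its mean ± SD. KO samples of Psmb5 lie between 5.30 and 5.38, inside the WT range of 4.84 to 5.58, and levels of different probes are not comparable.

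The immunoproteasome genes deviated further than the constitutive cutting subunits in most samples, including both numbered 4. Median deviations were 0.36 against 0.023 in KO sample 1 and 0.32 against 0.16 in WT sample 1. They were smaller in WT sample 2, at 0.026 against 0.10, and in WT sample 3, at 0.088 against 0.093. In WT sample 4 the median deviation of Psmb8, Psmb9 and Psmb10 was -0.64, against -0.19 for Psmb5, Psmb6 and Psmb7. In KO sample 4 it was -0.31, against 0.031. All 3 were higher in KO on average, with Psmb8 averaging 4.88 ± 0.29 in KO and 4.74 ± 0.37 in WT (SD, n = 4 each). Their differences were 0.14, 0.094 and 0.16, none called. Without WT sample 4 all 3 were lower in KO, at -0.022, -0.11 and -0.064, and Psmb9 was -0.045 on slide 1.

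The 6 ATPases of the 19S base, the ring that unfolds substrates, had 4 genes higher and 2 lower in KO with none called, and a median difference of 0.023. Psmc5 measured 2.45, 2.59, 2.61 and 2.46 in KO samples 1 to 4, against 2.47, 2.28, 2.61 and 2.33 in WT samples 1 to 4. KO samples 1 and 4 lay below WT sample 1, and the difference was 0.10 (SE 0.15). The dimmer probe of Psmc5 gave 0.23. Psmc1 measured 3.08, 3.14, 3.34 and 3.05 in KO, against 3.29, 3.20, 3.38 and 3.07 in WT. It was the one tested gene of the 40 that was lower in KO in all 4 pairs, with a mean difference of -0.087 and an interval of 0.733-fold to 1.21-fold, though with normexp correction the difference was 0.067. Psmc3 averaged 2.63 ± 0.16 in KO and 2.54 ± 0.28 in WT (SD, n = 4 each), and its difference of 0.091 turned to -0.045 without WT sample 4. Psmc2, Psmc4 and Psmc6 differed by 0.0048, 0.041 and -0.032, and a dimmer probe of Psmc4 gave 0.088.

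The 3 other base subunits recognise ubiquitin or hold its carriers. Psmd4, a ubiquitin receptor, measured 3.22, 3.23, 3.41 and 3.22 in KO samples 1 to 4, against 3.43, 3.15, 3.29 and 2.82 in WT samples 1 to 4. KO sample 3 stood above the other 3 KO samples, WT sample 4 was the lowest of all, and the difference was 0.096. Psmd1, a scaffold that binds a ubiquitin receptor, measured 2.79, 2.71, 2.85 and 2.85 in KO, against 2.93, 3.16, 2.89 and 2.35 in WT. The KO samples lay close together inside a wide WT range, with SDs of 0.066 in KO and 0.35 in WT. Its difference was -0.031, or -0.19 without WT sample 4, -0.29 on slide 1 and 0.23 on slide 2. Psmd2, the other scaffold, differed by 0.029 with one probe and by -0.033 with a dimmer one.

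The 8 lid subunits, which include the enzyme that cuts ubiquitin off incoming proteins, had 6 higher and 2 lower in KO with none called, and a median difference of 0.044. Psmd7, partner of that enzyme, measured 5.34, 5.54, 5.35 and 5.52 in KO samples 1 to 4, against 5.46, 5.38, 5.17 and 5.27 in WT samples 1 to 4. It was higher in KO in 3 of 4 pairs, by 0.12 on average, while its dimmer probe gave -0.064. Psmd12 measured 2.76, 2.71, 2.74 and 2.77 in KO, against 2.56, 2.66, 2.77 and 2.69 in WT. This was the least variable of the 40 genes within genotypes, with an SD of 0.064, and its difference was 0.077 (SE 0.14). Psmd12 has 2 further probes, at -0.018 and -0.0037. Psmd6 averaged 4.14 ± 0.11 in KO and 4.08 ± 0.18 in WT (SD, n = 4 each). Psmd14, the deubiquitinating enzyme itself, differed by 0.023, with an interval of 0.798-fold to 1.29-fold, while its dimmer probe gave 0.18. The other lid genes ran from -0.046 in Psmd3 through -0.043 in Psmd8 and 0.023 in Psmd11 to 0.079 in Psmd13.

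The 3 assembly chaperones of the 19S base differed by 0.070 in Psmd9, 0.064 in Psmd10 and 0.012 in Psmd5. Psmd9 measured -0.37, -0.42, 0.14 and -0.046 in KO samples 1 to 4, against -0.17, -0.58, 0.052 and -0.28 in WT samples 1 to 4. In both genotypes its highest value was sample 3, and its dimmer probe gave a difference of 0.032. Psmd10, which encodes the protein also called gankyrin, averaged 1.04 ± 0.32 in KO and 0.98 ± 0.18 in WT (SD, n = 4 each). Psmd5 averaged 1.80 ± 0.26 in KO and 1.79 ± 0.06 in WT (SD, n = 4 each). Its 4 KO samples spanned 1.47 to 2.11, beyond the WT range of 1.74 to 1.87 on both sides.

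With all samples and the processed signal, the 2 differences above 0.2 in size among the 40 were those of the activators Psme3 and Psme2. With normexp correction they were 0.50 for Psme3 and 0.51 for Psme2, and other members also passed 0.2, among them Psmd7 at 0.33 and Psmb5 at 0.30. Psme3 encodes PA28 gamma, a nuclear activator that opens the barrel without ubiquitin. It measured 2.07, 2.63, 2.26 and 2.13 in KO samples 1 to 4, against 1.80, 2.26, 1.90 and 1.90 in WT samples 1 to 4. Each KO sample exceeded the WT sample of its number, and WT sample 2 exceeded KO samples 1 and 4. The difference was 0.31 (SE 0.19, 1.24-fold, interval 0.909-fold to 1.69-fold, limma unadjusted p = 0.148 and adjusted p = 0.9999). With the replicate number as a block it had an unadjusted p of 0.039 and an adjusted p of 0.652 in limma, so it stayed uncalled. Its log2 interval in that fit was 0.024 to 0.60. There, 1 of the 40 genes (2.5%) was higher in KO at an unadjusted limma p under 0.05, against 2.93% of all genes. Leaving out each sample gave 0.19 to 0.41, and slides 1 and 2 gave 0.32 and 0.30.

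Psme2 encodes the beta subunit of PA28, the interferon-inducible activator that works with the immunoproteasome. It measured 3.90, 3.67, 3.88 and 3.39 in KO samples 1 to 4, against 3.42, 3.50, 3.44 and 3.31 in WT samples 1 to 4. KO samples 1 to 3 lay above all WT samples and KO sample 4 lay among them. The difference was 0.29 (SE 0.17, 1.22-fold, interval 0.929-fold to 1.61-fold, limma unadjusted p = 0.129 and adjusted p = 0.9999). Its second probe gave 0.19, slides 1 and 2 gave 0.33 and 0.26, and leaving out each sample gave 0.23 to 0.40. With the authors' deposited table Psme2 differed by 0.36 (limma adjusted p = 0.99996). There it alone of the 40 genes had an unadjusted limma p under 0.05, as did 609 of all 20726 genes.

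Psme1, which encodes the alpha subunit that forms a ring with the product of Psme2, measured 4.73, 4.47, 4.60 and 4.34 in KO samples 1 to 4, against 4.86, 4.45, 4.60 and 3.97 in WT samples 1 to 4. Its difference was 0.062, and it was -0.10 without WT sample 4. Psme4, which encodes the activator PA200, averaged 2.98 ± 0.22 in KO and 3.00 ± 0.21 in WT (SD, n = 4 each), a difference of -0.023. Its dimmer probes gave -0.13 and 0.091.

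The 2 tested genes that carry a Psm name without encoding a subunit were Psmc3ip and Psme3ip1. Psmc3ip measured -1.12, -2.25, -0.28 and -0.71 in KO samples 1 to 4, against -2.02, -1.14, -0.93 and -0.56 in WT samples 1 to 4. It had the widest spread of the 40 genes, with an SD of 0.74, and its 2 probes differed in sign, at 0.075 and -0.14. Psme3ip1, whose product binds the activator encoded by Psme3, averaged 1.67 ± 0.31 in KO and 1.59 ± 0.30 in WT (SD, n = 4 each). It was higher in KO in all 4 pairs, by 0.082 on average, while dimmer probes of Psme3ip1 gave 0.15 and -0.16.

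Among the 13 tested genes with more than 1 probe, all probes had the same sign of difference in 6. The 29 tested genes that serve the proteasome without being counted in the set, from chaperones of the 20S core to ubiquitin itself, had 19 higher and 10 lower in KO, with none called and a median difference of 0.021. The groups did not overlap in Psmg1, a chaperone that builds the alpha ring, which measured 0.48, 0.65, 0.53 and 0.79 in KO samples 1 to 4, against 0.26, 0.30, 0.27 and 0.39 in WT samples 1 to 4. Its difference was 0.31 (limma adjusted p = 0.9999). In limma with the replicate block, Psmg1 had an unadjusted p of 0.042 and an adjusted p of 0.652. They did not overlap either in Vcp, the ATPase that hands substrates to the proteasome, which measured 3.99, 4.05, 3.99 and 4.02 in KO, against 4.32, 4.32, 4.09 and 4.12 in WT. Its difference was -0.20 (limma adjusted p = 0.9999), or 0.035 with normexp correction. In limma with the replicate block, Vcp had an unadjusted p of 0.154 and an adjusted p of 0.750. Over all genes tested, KO lay wholly above WT in 0.757% and wholly below in 1.36%.

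Usp14, a deubiquitinating enzyme bound to the cap, differed by 0.18, or by -0.023 with the mean of its probes. Ubqln1, a shuttle for tagged proteins, differed by -0.087, and Rps27a, which encodes a ubiquitin fused to a ribosomal protein, by 0.19. The list for the NRF1 response held Nfe2l1, Ngly1 and Vcp, together with Nfe2l2, which encodes another factor, NRF2. Of these 4 genes, Nfe2l2 was higher in KO, by 0.29. The other 3 were lower, and the median difference over the 4 was -0.15. The intervals over these 4 genes reached from -0.87, in Ngly1, to 1.04, in Nfe2l2, on the log2 scale, wider than over the subunits.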

How the data were processed

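Total RNA (250 ng per sample) was amplified and labelled with Cy3, per the labels' protocols. The arrays were 1-colour Agilent 4x44K mouse arrays, per the file headers, and the authors deposited each spot's intensity as a background-corrected processed signal from Feature Extraction 10.7.1.1; the submitters' processing notes name version 10.5. A second table of intensity values from the authors, of unstated scale and with column medians of 92 to 94, served as an alternative.

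Control and outlier-marked spots were dropped, and log2 of the processed signal was averaged over the spots of a probe after subtraction of each array's 75th percentile (619 to 926 intensity units, 20.6 to 31.9 times background). A probe was kept if 4 or more of the 8 arrays read it well above background. Accessions named 25097 of 41174 probes through RefSeq (GRCm38.p6), and the others kept their accession. KO was tested against WT by two-sided limma 3.58.1 (lmFit, eBayes; R 4.3.3), with p-values adjusted over 20870 genes by Benjamini-Hochberg, and the 3 catalytic exchanges with exact permutation tests (SciPy 1.17.1). The limma fit was first tested on simulated data. Those samples were independent, and the changes put in were larger than any proteasome difference here. Samples that share a number and small differences were therefore not covered. For the numbers 1 to 4, the KO and WT samples' deviations from their group means had correlations of 0.30, 0.14, 0.70 and 0.51, all over 0.1, so the numbers were taken to pair the samples. This comes from the data, since the labels state no shared batch. Number 2 is not set apart: KO sample 2 with WT sample 4 had 0.14 and KO sample 4 with WT sample 2 had 0.15. Limma intervals, SEs and p-values are from the fit without this pairing unless a block is named.

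The members and lists were chosen with earlier results of these data known. Genes were named by a written rule: Atf3, the catalytic subunits and their inducible partners, up to 3 members per role group by smallest p (all in groups of up to 4), members failing the filter, 1 gene per pathway list, and the sort markers. Other members are named for completeness, after their values were seen. Alternatives were normexp (offset 50, median signal), quantile normalization, scaling by bright probes, other filters, the deposited table, mean of probes, slide and replicate blocks, each slide alone, eBayes with trend, and each sample left out. Exact sign flips over pairs for the exchanges, and both samples of a number left out, were chosen after seeing the data.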

Additional observations from a re-analysis of the deposited data

Results flagged for a closer look

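In 6 of 104 groups of 4 samples, a single sample stood apart from the other 3 by Dixon's criterion, where chance gives about 1 in 20. Psma6 in KO sample 3, at 4.41, lay above the other KO samples, which spanned 4.22 to 4.25. Psmd4 in KO sample 3, at 3.41, lay above the other KO samples at 3.22 to 3.23. Psmb5 in KO sample 3, at 5.30, lay below the others at 5.37 to 5.38. Psma7 in KO sample 1, at 4.84, lay above the others at 4.56 to 4.59. Psmc2 in WT sample 4, at 3.36, lay below the other WT samples at 3.85 to 3.92. Atf3 in KO sample 1, at 5.51, lay above the other KO samples at 4.86 to 4.96.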

How the results depend on the processing

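In the fit with the replicate block, the 40 proteasome genes had a median difference of 0.067 and 0 were called, so the pairing changed no call. For the 3 exchanges (mean differences 0.070, 0.18 and 0.18) the exact sign flips can give no p under 0.125. Pairing could therefore not change a call there. Under all other alternatives 0 members were called. Over all genes, 0 were called with all samples and under each alternative except without KO sample 1, where 1 was called, giving a range of 0 to 1. Among the named genes, the sign turned with normexp for Psmb6 (0.11), Psmb7 (0.11), Adgre1 (0.012), Ptprc (0.093), Psmc1 (0.067), Psmc3ip (-0.30), Psmd1 (0.065), Psme4 (0.12), Ubqln1 (0.049) and Vcp (0.035). It turned with the deposited table for Psmb3 (-0.015) and Psmd2 (-0.013), and with the mean of probes for Ptprc (0.039), Psmc3ip (-0.031), Psmd2 (-0.0023) and Usp14 (-0.023). On slide 1 it turned for Psmb5 (-0.15), Psmb9 (-0.045), Psmc3 (-0.066), Psmc3ip (-0.10), Psmd4 (-0.068), Psmd2 (-0.099), Psmd9 (-0.021), Psmd5 (-0.14), Psme1 (-0.056) and Ubqln1 (0.014). On slide 2 it turned for Psmb7 (0.064), Adgre1 (0.054), Psmb3 (-0.035), Psmd1 (0.23), Psmd10 (-0.043) and Psme4 (0.10). With each sample left out, differences ranged from -0.084 to 0.013 for Psmb7, -0.10 to 0.19 for Psme1, -0.18 to 0.026 for Ubqln1, -0.34 to 0.12 for Adgre1, -0.046 to 0.11 for Psmb3, -0.090 to 0.12 for Psmd5, -0.11 to 0.076 for Psme4, -0.015 to 0.21 for Psmb2, -0.011 to 0.19 for Psme3ip1, -0.21 to 0.46 for Psmc3ip, -0.069 to 0.082 for Psmd2, -0.042 to 0.17 for Psmd9, -0.053 to 0.18 for Psmd10, -0.34 to 0.15 for Ptprc, -0.19 to 0.080 for Psmd1, -0.074 to 0.17 for Psmb5, -0.022 to 0.28 for Psmb8, -0.11 to 0.23 for Psmb9, -0.064 to 0.29 for Psmb10, -0.045 to 0.16 for Psmc3, -0.021 to 0.18 for Psmd4, -0.023 to 0.11 for Psmd6 and -0.026 to 0.20 for Psmb8 minus Psmb5. The causes were not tested. None of these differences was called in any setting, and 4 samples per group limit the precision.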
